A study of Mus musculus with 8 samples.

Results

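Glypicans and syndecans are the main families of cell-surface proteins that carry heparan sulfate, and 9 of their genes were examined in ribosome-bound RNA from the paraventricular nucleus of the thalamus (PVT). The 6 glypicans were Gpc1 to Gpc6 and the 3 syndecans were Sdc2, Sdc3 and Sdc4, out of 18939 genes in the table. Gpc4 was picked from these same counts for its rise with morphine, and the other 8 genes were chosen by family, to be compared with it. The morphine values of Gpc4 are therefore a description with no test. Sdc1, the remaining syndecan, was listed with the other heparan sulfate proteoglycan cores.

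The RNA came from 8 libraries of Translating Ribosome Affinity Purification (TRAP)-Sequencing, in which tagged ribosomes are pulled down with the RNA they carry. All mice carried OPRM1cre X EGFP-L10a, so that the tagged ribosomal protein was made in cells where the promoter of the mu opioid receptor (MOR) gene drove Cre. The morphine group (4 libraries) drank morphine over 11 days, raised in steps to 0.5 mg/ml and dissolved in 0.2% saccharin, and the control group (4 libraries) drank 0.2% saccharin alone. By the labels, each library pooled 2 PVT dissections of the same sex, which is in doubt for control replicate 5 (described next), and each group had 2 male and 2 female libraries. The mice were young adults by the study's methods, and the labels give no age. Cre under this promoter also marks cells that used it only earlier in development, and the dissection was gross, so RNA of neighbouring tissue could enter the sample.

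A few facts about the libraries bear on what follows. Total counts with 1 transcript per gene ranged from 37081348 to 43311793 in the control group and from 31151103 to 47582947 in the morphine group. Control replicate 5 is labelled female but held Y-linked Ddx3y, Kdm5d, Uty and Eif2s3y at 28.7 to 35.8% of their male mean, whereas no more than 2 counts of any of these were found in another female library. Oprm1, which encodes MOR, was detected in every library, at 32.3, 29.4, 16.8 and 22.7 CPM (counts scaled to a common library size, TMM-normalized) in control replicates 1, 2, 5 and 6 and at 15.9, 14.0, 17.6 and 18.4 CPM in morphine replicates 3, 4, 7 and 8. The 7 markers of thalamic and MOR neurons summed to 6070 to 6910 CPM in the control group and 5630 to 7380 CPM in the morphine group, most of which was Snap25. Of the 7, 2 were lower and 1 was higher at an unadjusted P value under 0.05 by edgeR (5.31% and 6.79% of all genes), with a median log2 fold change of -0.22. The lower ones were Oprm1 (-0.62, adjusted P = 0.207) and Gbx2, a transcription factor of thalamic neurons (-0.69, adjusted P = 0.227).

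Some markers of other tissue had higher values in the morphine group, though 0 of them passed the adjusted threshold by edgeR. The 10 choroid plexus markers summed to 16.7 to 84.4 CPM in the control group and 115 to 381 CPM in the morphine group, and 9 of the 10 were higher at an unadjusted P value under 0.05, as were 6.79% of all genes. None of them was at 0 in all controls, though Kcnj13 was at 0 in control replicate 1. The 8 markers of telencephalic pyramidal neurons summed to 133 to 401 CPM and 310 to 689 CPM, with 5 of 8 higher by the same measure. Of the 4 markers of dentate granule cells, 3 were higher, with sums of 129 to 175 CPM and 143 to 176 CPM. Most of each sum was Prox1, with a log2 fold change of -0.22, while C1ql2, Dsp and Tdo2 had 0.98, 1.48 and 2.47. For the choroid plexus and telencephalic markers, fits with a score of each list in the model are given further on, and the part of the dentate markers was not tested. In such bulk samples more cells of a type and more RNA per cell cannot be told apart.

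Glypicans are globular proteins held on the outer membrane by a glycosylphosphatidylinositol (GPI) anchor, whereas syndecans span the membrane and end in a short cytoplasmic tail. The heparan sulfate chains of both bind growth factors, morphogens and synaptic proteins, and enzymes can release the cores from the cell surface. In the brain, Gpc4 and Gpc6 are known as proteins that astrocytes secrete and that promote excitatory synapses through AMPA-type glutamate receptors, and Gpc4 also acts on the presynaptic side as a ligand of LRRTM4 and of the receptor phosphatase PTPRS. Syndecans, by contrast, signal through the scaffold proteins that bind their tails.

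The coding sequences show how near the relatives of Gpc4 are to it, which matters for whether reads of 50 bases can be told apart. Gpc6 was the nearest, with 68.5% of aligned coding bases identical to those of Gpc4, and Gpc1 was next, ahead of Gpc5 with 59.1%, Gpc3 with 58.3% and Gpc2 with 57.2%. The longest run of bases found in the coding sequences of both Gpc4 and Gpc6, at any position, was 17 bases, below the read length. The 60 coding bases below are from exon 3 of each gene in GENCODE M21 on GRCm38. They were printed because they are the stretch of Gpc4, within a single exon, with the most matches to Gpc6 without gaps. The stretch of Gpc1 is the one that matches it best. Capitals mark bases that differ from Gpc4. Gpc4 is read at chrX:52074381-52074440 on the minus strand (coding bases 565 to 624), Gpc6 at chr14:117435897-117435956 on the plus strand (coding bases 565 to 624) and Gpc1 at chr1:92855100-92855159 on the plus strand (coding bases 568 to 627).
Gpc4: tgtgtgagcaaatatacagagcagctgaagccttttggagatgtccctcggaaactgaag
Gpc6: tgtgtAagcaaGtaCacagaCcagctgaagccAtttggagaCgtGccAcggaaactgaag
Gpc1: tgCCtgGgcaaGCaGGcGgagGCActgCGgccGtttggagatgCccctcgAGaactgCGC
Of the 60 bases, 52 matched in Gpc6 and 40 in Gpc1, and these high counts follow from how the stretches were chosen.

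The syndecans end alike. The last 60 coding bases, all in exon 5, encode part of the cytoplasmic tail that syntenin and CASK bind, and capitals mark the 14 bases that are the same in all 3 genes. They lie at chr15:33032478-33032537 on the plus strand for Sdc2, chr4:130822747-130822806 on the plus strand for Sdc3 and chr2:164426089-164426148 on the minus strand for Sdc4.
Sdc2: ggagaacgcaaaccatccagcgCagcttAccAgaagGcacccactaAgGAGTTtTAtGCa
Sdc3: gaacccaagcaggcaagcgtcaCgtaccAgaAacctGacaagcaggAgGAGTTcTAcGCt
Sdc4: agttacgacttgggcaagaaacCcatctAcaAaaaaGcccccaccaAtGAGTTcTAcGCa
Most of the shared bases lie at the very end of the tail.

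Gpc4 lay in the morphine group at levels no control library reached. In control replicates 1, 2, 5 and 6 it had 1.90, 2.36, 2.01 and 2.63 CPM, from 74, 105, 84 and 97 counts. In morphine replicates 3, 4, 7 and 8 it had 6.72, 6.75, 6.07 and 10.2 CPM, from 239, 223, 187 and 495 counts. The highest control library was below the lowest morphine library, and morphine replicate 8 stood above the other 3 morphine libraries. The means were 2.23 ± 0.337 CPM (SD, n = 4) and 7.43 ± 1.86 CPM (SD, n = 4). The log2 fold change was 1.74 (SE 0.202) or 3.34-fold, with a 95% interval of 2.46 to 4.54-fold. This is the value Gpc4 was picked for. Across all genes, 0.164% were higher in the morphine group by edgeR's quasi-likelihood test with a Benjamini-Hochberg adjusted P value under 0.05, and 0.195% were called in either direction. In 3.34% of all genes every morphine library was above every control library, and in 3.21% every morphine library was below.

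**Figure D1:**
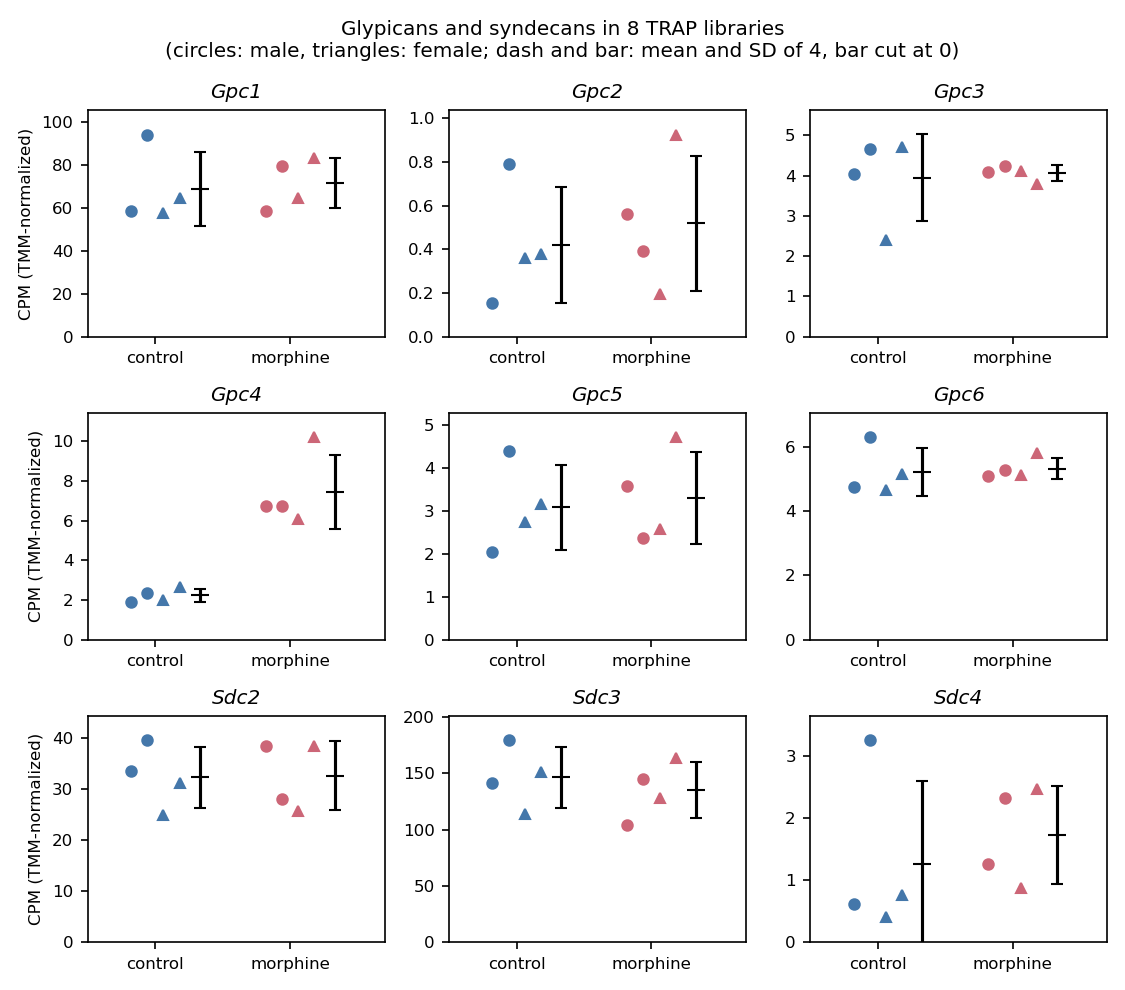
CPM of each glypican and syndecan in the 4 control libraries (blue) and 4 morphine libraries (red), with circles for male and triangles for female libraries and a dash and bar for the mean and SD of 4, and each panel on its own scale from 0. The groups are apart for Gpc4 (1.90 to 2.63 against 6.07 to 10.2 CPM) and overlap for the other 8 genes.

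Gpc4 is on the X chromosome, at chrX:52053021-52165252 on the minus strand of GRCm38. It has 9 exons and a transcript of 2651 bases, of which 1671 are coding. None of the 2602 windows of 50 bases along this transcript occurs in a transcript of another gene, and no exon of another gene overlaps it. Leaving out morphine replicate 8 gave a log2 fold change of 1.55 (2.93-fold), the lowest of the 8 fits that left out a library. That library had the highest morphine sum for several marker lists, such as choroid plexus (381 CPM, others 115 to 280) and oligodendrocytes (1440 CPM, others 537 to 773). It did not for telencephalic pyramidal neurons (588 CPM, others 310 to 689) or for thalamic and MOR neurons (6520 CPM, others 5630 to 7380). Their part in the value of Gpc4 there was not tested.

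The other secreted synaptogenic glypican, Gpc6, overlapped between the groups. It had 4.74, 6.30, 4.66 and 5.16 CPM in the control group and 5.09, 5.27, 5.13 and 5.80 CPM in the morphine group. The 4 morphine values lay inside the span of the control values. The log2 fold change was 0.03 (SE 0.149, adjusted P = 0.961 by edgeR over all genes), with a 95% interval of 0.813 to 1.28-fold. The ratio of Gpc4 to Gpc6 per length, within a library, does not depend on library scaling. With the transcript of Gpc6 that had the most counts it was 0.366, 0.343, 0.394 and 0.467 in the control group and 1.21, 1.17, 1.08 and 1.60 in the morphine group. Gpc6 has a second transcript in the table, whose counts (156 to 282) differed from those of the first (158 to 282) by at most 3 in any library. When both were added, the ratio was 0.183, 0.171, 0.198 and 0.233 in the control group and 0.608, 0.589, 0.544 and 0.802 in the morphine group. The ratio was higher in every morphine library than in every control library either way. Gpc4 exceeded Gpc6 in the morphine libraries only when a single transcript of Gpc6 was counted. Since both transcripts had nearly the same counts, their sum may count the same reads more than once.

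Gpc3, which restrains hedgehog signalling during growth, lies 107.2 kb from Gpc4 on the X chromosome, on the same strand. It had 4.03, 4.66, 2.41 and 4.70 CPM in the control group and 4.10, 4.24, 4.12 and 3.78 CPM in the morphine group. Control replicate 5 was the lowest, and the groups overlapped, with a log2 fold change of 0.04 (SE 0.209, adjusted P = 0.961). The per-length ratio of Gpc4 to Gpc3 was 0.394, 0.424, 0.695 and 0.469 in the control group and 1.37, 1.33, 1.23 and 2.25 in the morphine group.

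Gpc5, the closest relative of Gpc3 by coding sequence in this alignment (62.0% identical), had 2.05, 4.39, 2.73 and 3.15 CPM in the control group. In the morphine group it had 3.57, 2.36, 2.57 and 4.71 CPM. Each group had its highest library above 4 CPM and its lowest above 2 CPM, so that the groups overlapped over nearly their whole span, and the log2 fold change was 0.11 (SE 0.277, adjusted P = 0.903). Gpc5 and Gpc6 lie in the same orientation on chromosome 14 with 400.1 kb between them.

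Gpc1, a glypican carried by neurons and their axons, was the most abundant of the family. It had 58.4, 94.2, 57.6 and 64.4 CPM in the control group and 58.7, 79.4, 64.8 and 83.4 CPM in the morphine group. Control replicate 2 was the highest library, the groups overlapped, and the log2 fold change was 0.06 (SE 0.169, adjusted P = 0.909). Of its 50-base windows, 22.5% are shared with the antisense gene Ankmy1, and the counting is not stated to use strand, so this part of its counts is uncertain.

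Gpc2, a glypican of growing axons, was close to the lower limit of detection. It had 6, 35, 15 and 14 counts in the control libraries and 20, 13, 6 and 45 counts in the morphine libraries. Its log2 fold change of 0.33 had an SE of 0.518 (adjusted P = 0.834), and a change of 2.76-fold upward or to 0.57 of the control level was inside the 95% interval. In addition, 89.8% of its 50-base windows are shared with the overlapping gene Gm43720, so its counts may include reads of that gene.

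Among the syndecans, Sdc3, the main syndecan of neurons, was the most abundant. It had 141, 179, 114 and 151 CPM in the control group and 104, 145, 128 and 163 CPM in the morphine group. The groups overlapped, and the log2 fold change was -0.11 (SE 0.158, adjusted P = 0.803). Sdc2, which takes part in the maturation of dendritic spines, had 33.6, 39.6, 25.0 and 31.2 CPM in the control group and 38.5, 28.2, 25.7 and 38.4 CPM in the morphine group. Its groups also overlapped, with a log2 fold change of 0.02 (SE 0.168, adjusted P = 0.987).

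Sdc4, a widely expressed syndecan of cell-matrix contacts, turned on a single library. It had 0.615, 3.26, 0.406 and 0.760 CPM in the control group, so that control replicate 2 was far above the other 3. That library was also the highest control for 6 of 10 astrocyte markers, such as Aqp4 (9.59 CPM, others 2.23 to 3.94), for 5 of 5 microglia markers, for 5 of 5 endothelial markers, such as Flt1 (2.50 CPM, others 0.622 to 1.28), and for 5 of 6 markers of meningeal fibroblasts. Of the other lists, it was the highest control for 2 of 7 thalamic and MOR neuron, 2 of 5 oligodendrocyte precursor and 1 of 5 ependymal markers. The same held for 1 of 4 dentate granule cell and 1 of 5 medial habenula markers. It was so for 0 of the oligodendrocyte, choroid plexus and telencephalic markers. It was also the highest control for Gpc1, Gpc2, Gpc5, Gpc6, Sdc2 and Sdc3. The share over all genes was not computed, and the part of any cell type in the value of Sdc4 was not tested. In the morphine group it had 1.26, 2.33, 0.877 and 2.47 CPM. With all libraries the log2 fold change was 0.46 (SE 0.587, adjusted P = 0.783). Without control replicate 2 it was 1.56 (adjusted P = 0.094 by edgeR), and the remaining groups no longer overlapped. That library was the only control above the lowest morphine library, so this follows from leaving it out. The share of all genes whose groups were apart in this fit was not computed.

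**Figure D2:**
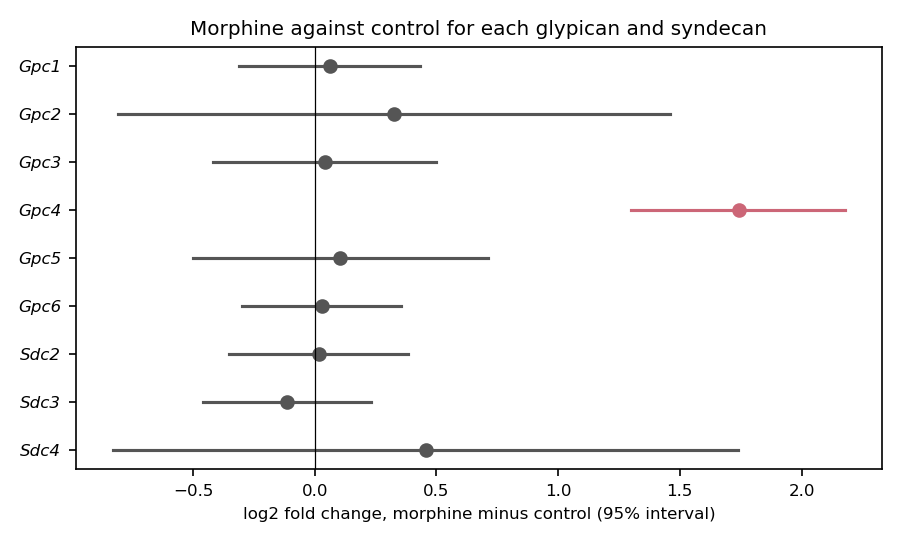
Log2 fold change of the morphine group against the control group for each gene, with its 95% interval from edgeR. Gpc4, drawn in red because it was picked on this value, is at 1.74 (1.30 to 2.18), and the intervals of the other 8 genes all include 0.

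Of the 8 relatives, edgeR called 0 (adjusted P value under 0.05), and 0 passed 0.05 before adjustment, against 6.79% of all genes higher and 5.31% lower at the unadjusted threshold. DESeq2 and limma-voom also called 0 of the 8. Their log2 fold changes ran from -0.11 to 0.46 with a median of 0.05, while the median of all genes was 0.01. The groups overlapped for 8 of the 8. The upper 95% bounds were 0.23 to 0.71 for Gpc1, Gpc3, Gpc5, Gpc6, Sdc2 and Sdc3, and 1.46 for Gpc2 and 1.74 for Sdc4, the least precisely measured of them. Of the 9 genes, 8 had at least 10 counts in every library, Gpc2 being the exception, and all 9 passed edgeR's filter on low counts.

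Levels of different genes can be compared only per length, so each CPM was divided by the length of the transcript in kb. In the control group the order was Sdc3 (29.4 ± 5.43 CPM per kb, SD, n = 4), Gpc1 (16.4 ± 4.14), Sdc2 (9.17 ± 1.71), Gpc6 (2.15 ± 0.312), Gpc5 (1.79 ± 0.572), Gpc3 (1.78 ± 0.482), Gpc4 (0.84 ± 0.127), Sdc4 (0.513 ± 0.546) and Gpc2 (0.162 ± 0.103). The ranges over the 4 libraries did not overlap between Sdc3, Gpc1, Sdc2 and Gpc6, nor between Gpc3 and Gpc4. Neighbours that did overlap were Gpc6 and Gpc5, Gpc5 and Gpc3, Gpc4 and Sdc4, and Sdc4 and Gpc2. Sdc4 overlapped Gpc4 only by control replicate 2, and without that library the mean of Sdc4 was 0.242 CPM per kb.

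In the morphine group the first 3 places were the same, and Gpc4 was in place 4 instead of place 7. With the sum over transcripts, which may count the same reads of Gpc6 more than once, it was in place 5, below Gpc6, instead of place 7. It was at 2.80 ± 0.70 CPM per kb (SD, n = 4), next to Gpc6 at 2.20 ± 0.135, Gpc5 at 1.92 ± 0.626 and Gpc3 at 1.83 ± 0.0884. The ranges of Gpc4 and Gpc6 overlapped, and Gpc4 was the higher of the pair in 4 of 4 libraries with 1 transcript of Gpc6 and in none with both added. Among all genes with a length, the group mean of Gpc4 went from percentile 36.2 to percentile 46.9, while Gpc6 was at 44.3 and 44.1 and Sdc3 at 85.5 and 84.3.

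Gpc4 took a larger share of the glypican family in the morphine group, which follows from the values it was picked for. It gave 3.63, 2.88, 3.93 and 4.39% of the summed per-length level of the 6 glypicans in the control libraries. It gave 11.1, 9.37, 9.81 and 12.4% in the morphine libraries, a mean of 10.7 ± 1.36% against 3.71 ± 0.635% (SD, n = 4). Gpc1 gave most of the remainder, with 68.1 to 72.7% in the control group and 61.6 to 70.0% in the morphine group. The summed level of the 6 glypicans was 19.3 to 31.0 CPM per kb in the control group and 22.8 to 31.0 CPM per kb in the morphine group, which overlap. Among the 3 syndecans, Sdc3 gave 74.2 to 76.8% in the control group and 64.7 to 77.0% in the morphine group, with morphine replicate 3 as the lowest library.

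**Figure D3:**
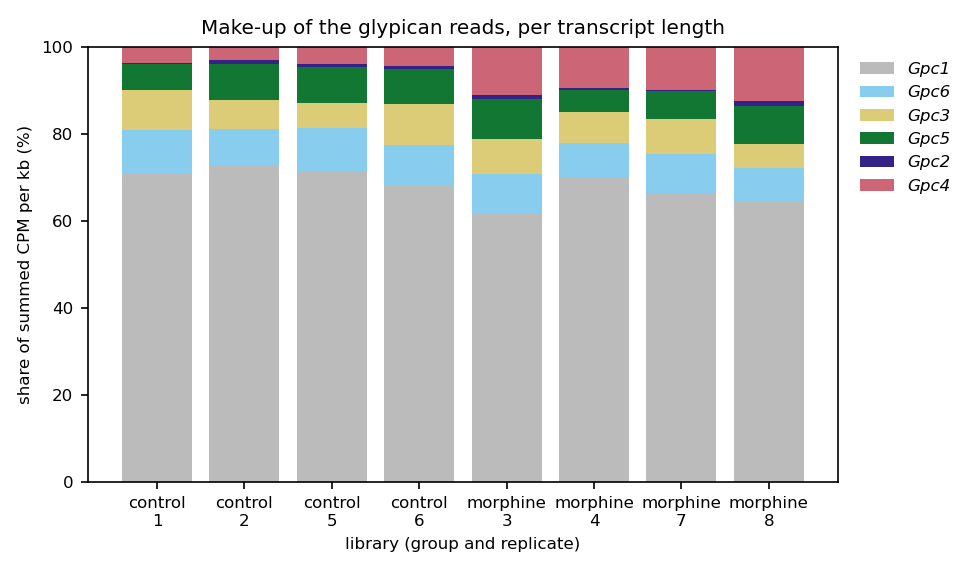
Share (%) of each glypican in the summed CPM per kb of the 6 glypicans, for each of the 8 libraries. The part of Gpc4 at the top is 2.88 to 4.39% in the 4 control libraries and 9.37 to 12.4% in the 4 morphine libraries, and Gpc1 is the largest part in all 8.

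Sex was not used to choose any of the genes. Female against male libraries, with condition in the model, 0.00528% of all genes were called by edgeR at an adjusted P value under 0.05 (1 gene) and 3.1% at an unadjusted one. None of the 9 glypicans and syndecans was among either, and the lowest unadjusted P value was 0.134 by edgeR, for Sdc4. Gpc4, which is X-linked, had a log2 difference of 0.20 (SE 0.196, 95% interval -0.22 to 0.63, adjusted P = 1.0), and Gpc3 nearby one of -0.19 (SE 0.208). The morphine difference of Gpc4 was 1.66 (SE 0.296) in males and 1.81 (SE 0.296) in females on the log2 scale. The interaction of sex and condition for Gpc4 was 0.15 (SE 0.411, 95% interval -0.75 to 1.05, unadjusted P = 0.714 by edgeR), with 2 libraries per sex and condition. For 1.72% of all genes the interaction had an unadjusted P value under 0.05, and 0 of the 9 genes were among them. Control replicate 5, whose Y-linked counts go against its label, is among the female libraries of these comparisons, so the values for females and for the interaction may rest on a library of mixed sex. Without it, 0 of the 9 genes were called by edgeR for sex or for the interaction, Gpc4 had a log2 difference between the sexes of 0.27 (SE 0.208, unadjusted P = 0.213) and its interaction was -0.03 (SE 0.454, unadjusted P = 0.952).

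Other genes of the region around Gpc4 were measured as well. Within 1000 kb, Hs6st2, a heparan sulfate 6-O-sulfotransferase 371.2 kb away, had a log2 fold change of 0.16 (SE 0.150, adjusted P = 0.677). Hprt, a purine salvage enzyme, had 0.05 and Phf6, a chromatin protein, had -0.11, while Ccdc160 had -0.07 and Mbnl3, a splicing regulator, had -0.53 (adjusted P = 0.651). All 5 overlapped between the groups. The other 4 genes within this distance besides Gpc3 had 0 to 6 counts in any library, too few to be compared, and the most counted of them was C430049B03Rik, with 0 to 2 counts in the control group and 1 to 6 in the morphine group. This neighbourhood was examined after the values of Gpc4 had been seen.

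The enzymes and partners that act on these proteoglycans were read from 6 lists of 60 genes in all, and 0 of the 60 were called at an adjusted P value under 0.05 by edgeR. At an unadjusted P value under 0.05, 13 were higher and 1 was lower, against 6.79% and 5.31% of all genes. The median log2 fold change over the 60 genes was 0.22, with 48 of them above 0, beside a median of 0.01 and 51.4% above 0 for all genes. In 5 of the 60 every morphine library was above every control library, and in 1 every morphine library was below, beside 3.34% and 3.21% of all genes. The count of 14 moved with the samples and the model, and so did the share of all genes at the same threshold, which was 12.1% with all libraries. The count was 29 without control replicate 2 (18.5% of all genes), and 8 without control replicate 1 (7.6%), control replicate 5 (11.1%) or morphine replicate 8 (8.86%). It was 4 with the choroid plexus score in the model (3.32% of all genes) and 4 with the telencephalic score (6.87%). Most of the 60 log2 fold changes were below 0 with the choroid plexus score, and most were above 0 with the telencephalic score.

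Of the 11 genes for heparan sulfate chain synthesis, 2 were higher at the unadjusted threshold, and the median log2 fold change was 0.27. They were Extl1 (0.45, SE 0.185, adjusted P = 0.354) and Extl2 (0.39, SE 0.163, adjusted P = 0.363), both members of the exostosin-like glycosyltransferases. With the choroid plexus and telencephalic scores in the model Extl1 had -0.15 and -0.09, and Extl2 had 0.20 and 0.62. Of the 16 genes for modification of the chains, 2 were higher, with a median of 0.16. Hs3st4, a 3-O-sulfotransferase, had 36.3, 68.3, 62.5 and 65.9 CPM in the control group and 84.5, 100, 75.7 and 81.6 CPM in the morphine group. Its groups did not overlap, and the log2 fold change was 0.55 (SE 0.178, adjusted P = 0.241). Ndst4, an N-deacetylase and N-sulfotransferase, had 0.57 (SE 0.218, adjusted P = 0.320).

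Of the 10 genes for editing and shedding, 2 were higher, with a median log2 fold change of 0.22. Adam17, a protease that sheds membrane proteins including syndecans, had 2.26, 3.31, 3.06 and 3.07 CPM in the control group and 3.96, 4.66, 3.77 and 5.20 CPM in the morphine group. Its groups did not overlap, and the log2 fold change was 0.59 (SE 0.182, adjusted P = 0.222). Sulf2, which removes 6-O-sulfates outside the cell, had 0.67 (SE 0.299, adjusted P = 0.405). With the choroid plexus and telencephalic scores in the model Sulf2 had -0.52 and -0.09. Gdpd5, which cleaves GPI anchors, had 0.15 (SE 0.139).

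Of the 8 other heparan sulfate proteoglycan cores, 1 was higher and 1 was lower, with a median log2 fold change of 0.16. Tgfbr3, a co-receptor of TGF-beta, had 0.50 (SE 0.209, adjusted P = 0.371). With the choroid plexus and telencephalic scores in the model Tgfbr3 had -0.14 and 0.38. Col18a1, a collagen of basement membranes, had 2.97, 4.25, 2.37 and 3.42 CPM in the control group and 2.00, 1.91, 1.82 and 2.24 CPM in the morphine group. It was the gene with every morphine library below every control library, and its log2 fold change was -0.71 (SE 0.209, adjusted P = 0.202). Sdc1 had 0.774 ± 0.190 CPM and 0.867 ± 0.394 CPM (SD, n = 4 each).

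Of the 8 glypican partners at synapses, 5 were higher at the unadjusted threshold and 0 were lower (6.79% and 5.31% of all genes). All 8 had a log2 fold change above 0 (51.4% of all genes), with a median of 0.35. With the choroid plexus score in the model, Ptprf had -0.64, Ptprs -0.30, Nptx1 -0.16 and Ptprd -0.14. Lrrtm4 had 0.38, Gria1 0.21, Lrrtm3 0.10 and Gpr158 0.07 with that score. With the telencephalic score, Ptprf had -0.35 and the others were above 0. Lrrtm4, a postsynaptic adhesion protein that binds heparan sulfate of glypicans, had 10.2, 16.5, 11.0 and 12.2 CPM in the control group. In the morphine group it had 18.9, 23.8, 20.2 and 29.8 CPM. The groups did not overlap, and the log2 fold change was 0.89 (SE 0.184, adjusted P = 0.0817 by edgeR and 0.000883 by DESeq2). With a library left out its adjusted P value by edgeR ran from 0.0467 (without control replicate 2) to 0.238 (without morphine replicate 4), and of the 8 such fits only that without control replicate 2 was under 0.05.

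Gria1, the AMPA receptor subunit GluA1, had 184, 242, 154 and 231 CPM in the control group and 249, 348, 315 and 411 CPM in the morphine group. Its groups did not overlap, and the log2 fold change was 0.71 (SE 0.173, adjusted P = 0.133 by edgeR and 0.00948 by DESeq2). Gria1 had also been picked by the study on these samples, so it is not independent evidence of a direction. Nptx1, a neuronal pentraxin that clusters AMPA receptors, had 32.2, 62.0, 58.0 and 76.2 CPM in the control group and 74.1, 134, 93.7 and 178 CPM in the morphine group. Its groups overlapped by control replicate 6 and morphine replicate 3, and the log2 fold change was 1.07 (SE 0.287, adjusted P = 0.161 by edgeR and 0.0114 by DESeq2). The other two, named after their values were seen, were Gpr158 (0.38, SE 0.140) and Ptprd (0.32, SE 0.137). Ptprs, the receptor phosphatase that binds Gpc4, had 0.30 (SE 0.196, adjusted P = 0.590).

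Of the 7 syndecan ligands and cytoplasmic partners, 1 was higher, with a median log2 fold change of 0.09. It was Fgf2, a growth factor that needs heparan sulfate to bind its receptor, at 0.308 ± 0.143 CPM in the control group and 0.630 ± 0.0902 CPM in the morphine group (SD, n = 4 each). Its log2 fold change was 1.03 (SE 0.380, adjusted P = 0.307). The syntenin gene Sdcbp, whose product binds the tails printed above, had 0.09.

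**Figure D4:**
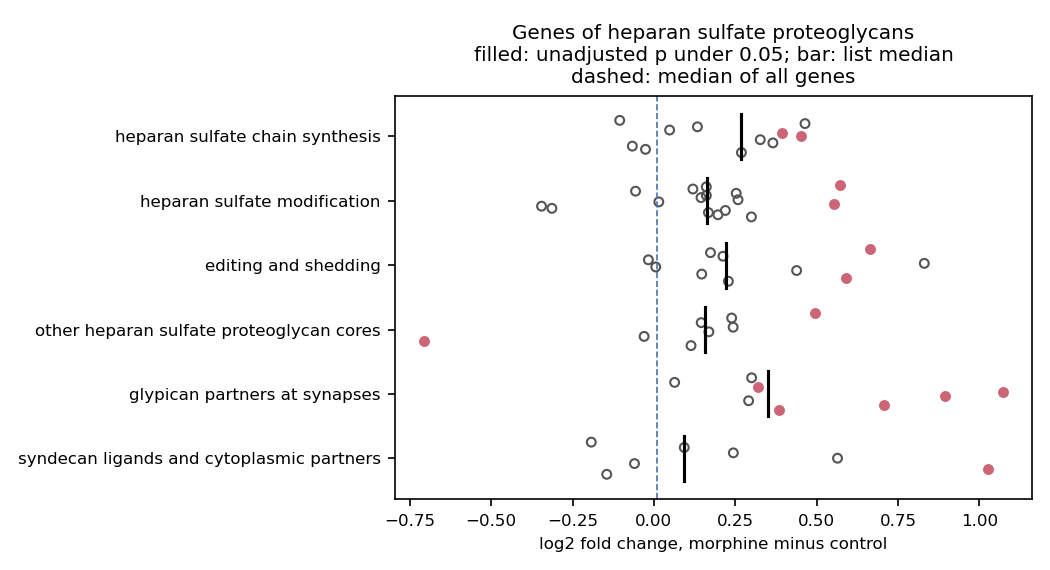
Log2 fold change, morphine against control, of the 60 genes in the 6 lists, 1 point per gene, filled where the unadjusted P value is under 0.05, with a bar at each list's median and a dashed line at the median of all genes (0.01). The median of the synaptic partners is 0.35, and that of the syndecan partners is 0.09.

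The choroid plexus and telencephalic markers were each reduced to a score per library and added to the model, to give the difference that remained at a given score. The log2 fold change of Gpc4 was then 1.16 (SE 0.284, 2.23-fold) with the choroid plexus score and 1.48 (SE 0.318, 2.79-fold) with the telencephalic score. The score and the condition go together in these 8 libraries, and the standard errors were larger than without a score. Gpc6 had -0.16 and 0.00 with the same scores, and Lrrtm4 had 0.38 and 0.78, whereas Nptx1 had -0.16 and 0.39. Of the other list genes whose groups did not overlap, Gria1 had 0.21 and 0.35, Hs3st4 had 0.04 and 0.35, Adam17 had 0.13 and 0.45, Fgf2 had 0.30 and 0.72, and Col18a1 had -0.99 and -0.79. Within the control group, replicate 6 had the most Neurod6, a marker of telencephalic pyramidal neurons (13.7 CPM, others 1.51 to 3.17), and the most Gpc4 (2.63 CPM, others 1.90 to 2.36). The 10 astrocyte markers summed to 537 to 656 CPM in the control group and 475 to 682 CPM in the morphine group, and most of each sum came from Slc1a2 and Aldoc. Their log2 fold changes had a median of 0.37, with 8 of them positive, and 1 was higher at the unadjusted threshold, Sox9 (0.73, adjusted P = 0.268).

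**Figure D5:**
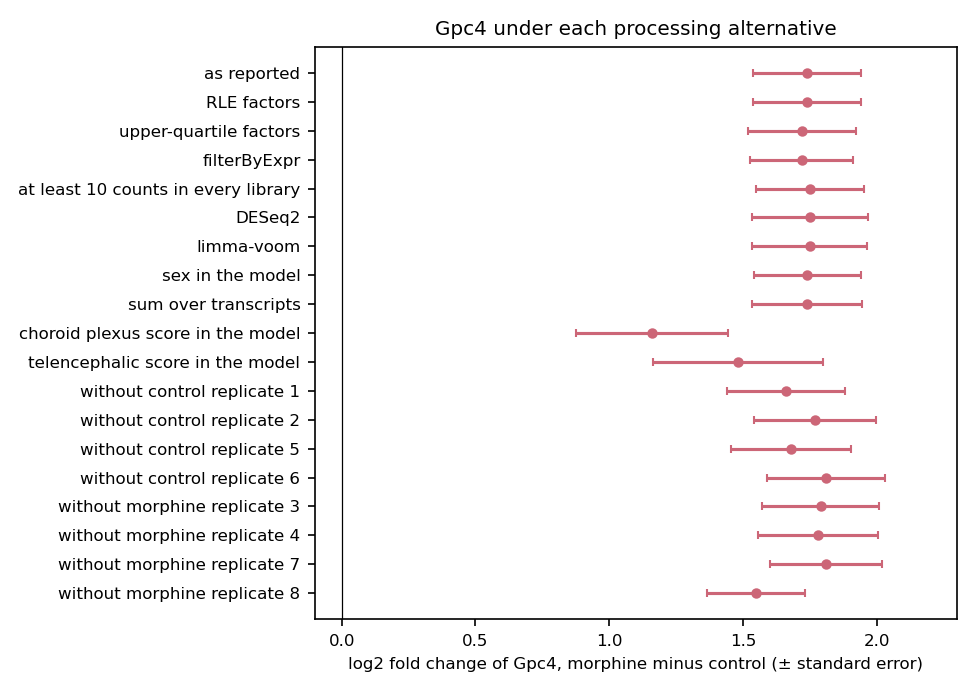
Log2 fold change of Gpc4, morphine minus control, with its standard error, under each normalization, filter, tool, covariate and left-out library. All values are above 0, from 1.16 with the choroid plexus score in the model to 1.81 without control replicate 6 or morphine replicate 7.

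Genes whose log2 CPM over the 8 libraries was most like that of Gpc4 were sought among 13702 others that reached 10 counts in each library. Among the nearest were Abcg2, a membrane transporter (r = 0.99), Tmem106b, a lysosomal membrane protein (r = 0.984), Kcng2, a modifier subunit of potassium channels (r = 0.982), and Pfn1, an actin-binding protein (r = 0.979). These correlations (Pearson, n = 8 libraries) include the difference between the groups and are a description. Abcg2 was at 2.54 ± 0.194 CPM in the control group and 3.79 ± 0.273 CPM in the morphine group (SD, n = 4 each), with morphine replicate 8 highest at 4.13 CPM, as it was for Gpc4. Among the relatives the correlation with Gpc4 ran from -0.06 for Sdc3 to 0.49 for Sdc4, and Gpc2 was not among the genes compared.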

How the data were processed

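TRAP-Seq of MOR-expressing PVT neurons gave 8 libraries, and groups, sexes and replicate numbers were taken from the labels. The authors deposited raw read counts for 24488 RefSeq transcripts, which are not normalized. The submitters' processing notes name mm10 and DESeq2, and the paper's methods describe Salmon, with GC bias correction, and tximport for the gene-level matrix. The table instead lists transcripts, with nearly the same whole counts on both of Gpc6, and how it was made and whether strand was used are not given in the sources used here. For each gene the transcript with the most counts was kept, and Gpc6 alone of the 9 genes had a second transcript. The table had no column without a sample.

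The genes and lists were chosen with earlier results of these data known. Counts of all 18939 genes were normalized with TMM and tested with edgeR 4.0.16 (R 4.3.3, glmQLFit and glmQLFTest), with condition in the model and Benjamini-Hochberg adjustment over all genes. CPM was computed from the TMM-normalized library sizes. Sex was tested beside condition, and their interaction in a further model. A marker score averaged log2 CPM (prior count 2) over a list. Gene positions, lengths and sequences are from GENCODE M21 (GRCm38), with all 9 genes matched by transcript. The scripts were tested on simulated data. P values measure the spread between pooled samples. PCR copies were not marked, so reads are not independent molecules, and for genes with few counts such as Gpc2 counting error limits the precision.

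Named genes were the 9 genes, up to 3 genes per list and direction with the lowest unadjusted P value under 0.05, the 5 genes most like Gpc4 (1 is not reported here), and markers that moved with a result. Alternatives were DESeq2 1.42.0, RLE factors, upper-quartile factors, a minimum of 10 counts per library, filterByExpr, limma-voom (limma 3.58.1), sex or a marker score in the model, the sum over transcripts, and each library left out.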

Additional observations from a re-analysis of the deposited data

Results flagged for a closer look

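In 3 of the 42 groups of 4 libraries examined, for 21 genes, 1 library stood apart from the other 3 by Dixon's criterion, which chance meets in about 1 in 20 groups. Gpc4 was at 10.2 CPM in morphine replicate 8, against 6.07 to 6.75 CPM in the other morphine libraries. Sdc4 was at 3.26 CPM in control replicate 2, against 0.406 to 0.760 CPM in the other controls. Tgfbr3 was at 15.1 CPM in morphine replicate 8, against 9.74 to 10.6 CPM in the other morphine libraries.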

How the results depend on the processing

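The log2 fold change of Gpc4 was 1.72 to 1.75 under every other normalization, filter and tool, with sex in the model and with the sum over transcripts. It was 1.16 with the choroid plexus score and 1.48 with the telencephalic score in the model, and 1.55 (without morphine replicate 8) to 1.81 with a library left out. No paired analysis was possible because the groups share no replicate number. The number of genes called over the whole table was 37, and it was 14 with filterByExpr, 15 with at least 10 counts in every library, 502 with DESeq2, 23 with limma-voom, 110 with sex in the model, 22 with the sum over transcripts, 0 with the choroid plexus score (628 at an unadjusted P value under 0.05, edgeR) and 1 with the telencephalic score. With a library left out it was 0 to 77, being 0 without morphine replicate 4 or 8 (1696 and 1664 unadjusted, edgeR), 1 without control replicate 1 and 11 without morphine replicate 7, and 77 without control replicate 6 or morphine replicate 3. The count of list genes at an unadjusted P value under 0.05 was 14, 4 with either score and 8 to 29 with a library left out, and list genes called numbered 3 with DESeq2 and 0 to 1 with a library left out. Genes of the 9 whose groups did not overlap numbered 1 to 2, the second being Sdc4 without control replicate 2.

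Several relatives changed sign under an alternative, as did several of the list genes named for the lowest P values. Sdc2 was -0.0067 with upper-quartile factors and -0.00122 with filterByExpr. With the choroid plexus score the log2 fold changes were -0.321 for Gpc1, -1.04 for Gpc2, -0.128 for Gpc3, -0.519 for Gpc5, -0.157 for Gpc6, -0.0624 for Sdc2, -0.904 for Sdc4, -0.148 for Extl1, -0.517 for Sulf2, -0.144 for Tgfbr3 and -0.162 for Nptx1. With the telencephalic score they were -0.015 for Gpc1, -0.195 for Gpc3, -0.0898 for Extl1 and -0.0853 for Sulf2. With a library left out the ranges were -0.0284 to 0.252 for Gpc1, -0.13 to 0.833 for Gpc2, -0.15 to 0.131 for Gpc3, -0.12 to 0.328 for Gpc5, -0.0362 to 0.133 for Gpc6 and -0.105 to 0.128 for Sdc2. None of the 8 relatives was called at an adjusted P value under 0.05 under any of these. Summing over transcripts gave Gpc6 17.2% of the control glypican level in place of 9.42%. Its second transcript is then added, with nearly the same counts, so the same reads may be counted more than once. The causes of the other differences were not tested.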
